A study of Mus musculus with 10 samples.

Results

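The genes described here encode the nuclear-encoded subunits of the mitochondrial respiratory chain, with the complex I assembly factors that share the Nduf prefix. A gene was taken when a probe set carried its symbol alone and the symbol began with Nduf, Uqcr, Cox4 to Cox8 or Atp5, or was Sdha, Sdhb, Sdhc or Sdhd. Pseudogenes and genes of the mitochondrial genome were left out. This gave 87 of the 22180 genes measured, on 96 probe sets, and where a gene had 2 probe sets the one with the higher mean over all 10 arrays was used. By complex there were 34 complex I genes, 8 complex I assembly factor genes, 4 genes of complex II, 7 of complex III, 17 of complex IV and 17 of complex V. A further 10 probe sets carried a matching symbol together with another gene's and were not used. For 7 of them the gene had no other probe set, so Ndufb2, Ndufb4, Ndufs6, Uqcr10 and Cox6c are missing from the 87.

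The samples were 5 Zbtb4 knock-out (KO) and 5 wild type (WT) cultures of mouse embryonic fibroblasts (MEFs), connective tissue cells grown from the dorsal skin of embryos at E13.5, with no treatment named in the labels. Total RNA was hybridised to one-colour Affymetrix arrays, and values are log2 expression, so that a difference of 1 is a doubling. ZBTB4 is a zinc finger repressor that recognises methylated CpG, and the question was which transcripts depend on the Zbtb4 gene. The protocol names dorsal skin, and also the mincing of embryos freed of head and organs. Neither the deleted part of Zbtb4 nor the number of embryos is stated in the labels. Y-linked genes were high on arrays 1 and 3 of each genotype and low on the others, so the 5 arrays of a genotype were not all from 1 embryo. If some arrays of a genotype share an embryo, the p-values given here partly reflect technical spread between these 10 samples.

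The respiratory chain sits in the inner mitochondrial membrane. Complexes I and II pass electrons from NADH and succinate to ubiquinone, complex III passes them on to cytochrome c, and complex IV hands them to oxygen. Complexes I, III and IV pump protons as they do so, and complex V, the ATP synthase, uses the proton gradient to make ATP. Most subunits are encoded in the nucleus, and the transcription factors NRF1, GABPA and YY1 are known to bind the promoters of many of them. Several complex IV subunits exist as a common form and a form restricted to muscle, lung or testis.

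Facts of the whole series are brief. Array medians lay between 3.89 and 3.93 and any pair of arrays correlated across genes, which are not independent replicates, with r from 0.989 to 0.994. Zbtb4 had a mean of 5.45 ± 0.27 in KO and 6.07 ± 0.11 in WT cells (SD, n = 5 each), with all KO arrays below all WT arrays (limma adjusted p = 0.628). The fibroblast genes Col1a1, Col1a2 and Thy1 were above the median of genes on every array. Their means were 10.47, 11.63 and 10.89 in KO cells, against 10.40, 11.63 and 11.0046 in WT cells. The precision is limited by the number of arrays.

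Respiratory chain genes were at nearly the same level in KO and WT fibroblasts. Of the 87 genes, 54 had a higher and 33 a lower mean in KO cells, and the median log2 difference, KO minus WT, was 0.023. Of all genes 50.7% were higher and their median was 0.0020. Of the 1160 genes at or above the members' median level, 8.52, 48.2% were higher, with a median of -0.0030. Of the 44 members at that level 29 were higher, with a median of 0.031. With each array centred on its median the members split 45 higher and 42 lower, with a median of 0.0054 where that of all genes was -0.016, since centring moves every gene by the same amount. None passed limma's adjusted p of 0.05 over all genes in either direction, where the share of all genes called was also 0%, and the smallest adjusted p of a member was 0.830. At a limma unadjusted p under 0.05 there was 1 member, 1.15% of them, and it was lower in KO cells. Of all genes 5.98% met that rule, 3.25% higher and 2.73% lower in KO cells. Of the 1160 genes at or above the members' median level, 14 met it with higher and 22 with lower means in KO cells. Of the 44 members at that level 0 met it. In RNA from whole cultures, fewer cells of a type and less RNA per cell cannot be told apart.

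The intervals around these differences were narrow. Single differences ran from -0.28 for Ndufa4l2 to 0.18 for Cox7a1, and the quartiles of all 87 were -0.027 and 0.075. For 73 of the 87 genes, or 83.9%, the whole 95% interval lay within a 1.25-fold change in either direction, a log2 difference of 0.32, while this held for 56.0% of all genes. Members were mostly bright, and among the 1160 genes at or above the members' median level of 8.52 the share was 83.7%, while it was 97.7% for the 44 members at that level. The 14 members with wider intervals were Ndufa4l2, Ndufa7, Ndufb3, Ndufb11, Ndufv3, Ndufaf3, Ndufaf6, Ndufaf7, Cox4i2, Cox6b2, Cox7a1, Cox8c, Atp5g1 and Atp5j2. The median standard error was 0.078 for members and 0.10 for all genes.

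**Figure D1:**
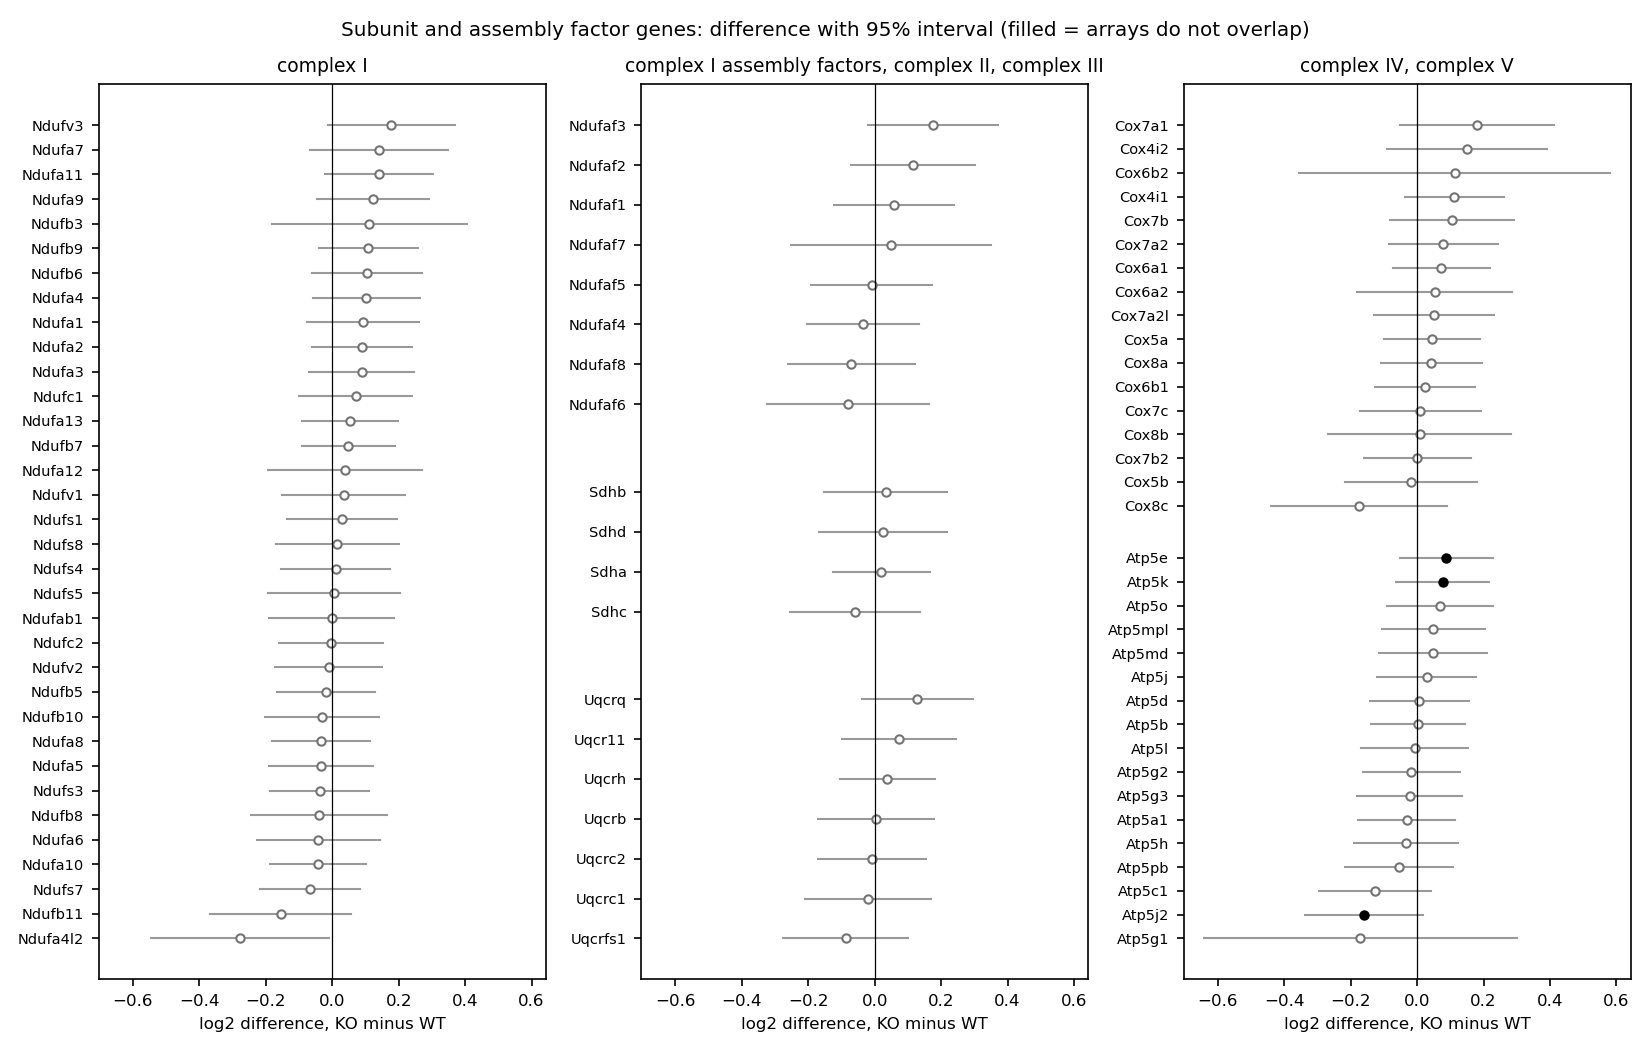
Log2 difference between KO and WT means (x axis) for each of the 87 genes, with its 95% limma interval as a line, grouped by complex. The points lie between -0.28 and 0.18, most intervals cross 0, and the 3 filled points, all in complex V, are the genes whose KO and WT arrays do not overlap.

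Complex I takes electrons from NADH. Of its 34 measured subunit genes, 20 had a higher and 14 a lower mean in KO cells, with a median difference of 0.022, and 0 passed limma's adjusted threshold. Genes were grouped by symbol, so the 34 include Ndufa4 and its paralogue Ndufa4l2. The catalytic subunits were level between genotypes. Ndufs1, which carries iron-sulphur clusters, averaged 6.78 ± 0.12 in KO and 6.75 ± 0.055 in WT cells, and Ndufv1, which holds the NADH and flavin site, averaged 8.080 ± 0.091 in KO and 8.045 ± 0.15 in WT cells (SD, n = 5 each). Their differences were 0.029, with a 95% interval from -0.14 to 0.19, and 0.035, with an interval from -0.15 to 0.22.

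Among the accessory subunits, Ndufv3 and Ndufa11 had the smallest p-values of those with a higher mean in KO cells. Ndufv3, a small subunit of the NADH-binding module, read 7.32, 7.42, 7.29, 7.59 and 7.48 on KO arrays 1 to 5, against 7.26, 7.30, 7.25, 7.01 and 7.38 on WT arrays 1 to 5. The genotypes overlapped, with WT array 4 the lowest of all, and KO minus WT was 0.18, SE 0.089 (limma adjusted p = 0.835; exact two-sided permutation p = 0.0556). Ndufa11, a subunit of the membrane arm, read 10.38, 10.48, 10.25, 10.42 and 10.38 on the KO arrays, against 10.25, 10.20, 10.23, 10.13 and 10.38 on the WT arrays. Here too WT array 5 reached the KO values, and the difference of 0.14 had a limma adjusted p of 0.840.

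On the lower side, Ndufb11, an X-linked membrane arm subunit, averaged 5.70 ± 0.10 in KO and 5.85 ± 0.20 in WT cells (SD, n = 5 each), which differed by -0.15 (limma adjusted p = 0.842). It was 5.99, 6.012 and 5.96 on WT arrays 1, 3 and 5 and lower on all other arrays. The other X-linked members, Ndufa1, also of the membrane arm, and Cox7b of complex IV, differed by 0.093 and 0.11. Y-linked genes were high on arrays 1 and 3 of each genotype, and with their mean level as a covariate Ndufb11 differed by -0.15 and Cox7b by 0.11.

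The only member with a limma unadjusted p under 0.05 was Ndufa4l2, a paralogue of Ndufa4 known as a target of hypoxia-inducible factor. It read 3.17, 3.067, 2.53, 3.083 and 3.22 on KO arrays 1 to 5, against 3.30, 3.31, 3.33, 3.45 and 3.070 on WT arrays 1 to 5. Its level was below the median of genes on all 10 arrays, KO array 3 was the lowest and WT array 5 lay among the KO arrays. KO minus WT was -0.28 (SE 0.12), and its 95% interval ran from -0.55 to -0.0098 (limma unadjusted p = 0.0433, adjusted p = 0.830; exact permutation p = 0.0476). Without KO array 3 it was -0.16. In a list of hypoxia genes, 12 were measured, and 6 means were higher and 6 lower in KO cells. Their median was 0.0077, with 0 past the adjusted threshold. The exact permutation p was also under 0.05 for Cox4i1, Ndufb9 and the 3 members without overlap described below. The permutation test was not run over all genes, so the share of all genes under 0.05 is not known, and nothing is read from this count. Ndufb9, named after its values were seen, differed by 0.11 (exact permutation p = 0.0238, limma adjusted p = 0.842).

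Ndufa4 itself, named for complex I but now counted as a subunit of complex IV, averaged 10.95 ± 0.071 in KO and 10.84 ± 0.099 in WT cells (SD, n = 5 each), which differed by 0.10 (limma adjusted p = 0.857). Ndufa8, a twin-cysteine accessory subunit, had probe sets that differed by -0.034 and 0.018.

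Complex I assembly factors build the enzyme but are not part of it. Among the 8 measured genes the means split 4 higher and 4 lower in KO cells, with a median of 0.020, and 5 higher and 3 lower under quantile normalization. Ndufaf3, which acts early in assembly, averaged 6.57 ± 0.081 in KO and 6.39 ± 0.17 in WT cells (SD, n = 5 each), which differed by 0.18 (limma adjusted p = 0.839). Leaving out 1 array at a time gave 0.13 to 0.24. WT array 5, at 6.67, was as high as the highest KO array, at 6.68. Ndufaf2, an assembly chaperone, differed by 0.11, Ndufaf8 by -0.071 and Ndufaf6 by -0.081, with limma adjusted p-values from 0.858 to 0.928. Ndufaf7, another assembly factor, varied most within a genotype, from 5.88 to 6.78 on KO arrays, against 6.12 to 6.47 on WT arrays, and it is named for that spread after its values were seen.

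Complex II, succinate dehydrogenase, is also an enzyme of the citric acid cycle, and all of its 4 subunits are encoded in the nucleus. Sdha, the flavoprotein, averaged 8.53 ± 0.063 in KO and 8.51 ± 0.060 in WT cells, and Sdhb, the iron-sulphur subunit, averaged 7.84 ± 0.15 in KO and 7.81 ± 0.081 in WT cells (SD, n = 5 each). The membrane anchors Sdhc and Sdhd differed by -0.060 and 0.025. All 4 intervals lay within 1.25-fold in either direction, and the largest of the 4 differences in size was that of Sdhc, with an interval from -0.26 to 0.14. Sdhc was highest on KO array 1, at 9.022, and lowest on KO array 4, at 8.58, and Sdhd was also highest on KO array 1, at 7.95. The mean deviation of the 4 genes on that array from their mean over 10 arrays was 0.14, against -0.079 to -0.0057 on the other KO arrays and -0.041 to 0.053 on the WT arrays.

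Complex III, the cytochrome bc1 complex, had 4 genes with a higher and 3 with a lower mean in KO cells, and a median of 0.0044; with each array centred on its median 3 were higher and 4 lower. Uqcrq, a small subunit gene on chromosome 11, read 8.53, 8.43, 8.61, 8.43 and 8.36 on KO arrays, against 8.51, 8.26, 8.32, 8.32 and 8.31 on WT arrays. All KO arrays were above 4 of the 5 WT arrays, and WT array 1 lay among the KO arrays, with a difference of 0.13 (limma adjusted p = 0.842; exact permutation p = 0.0794). Uqcrfs1, the Rieske iron-sulphur protein, averaged 6.82 ± 0.14 in KO and 6.91 ± 0.11 in WT cells (SD, n = 5 each), which differed by -0.087. Uqcr11, another small subunit, differed by 0.074 and Uqcrc1, a core subunit, by -0.020. All 7 intervals lay within 1.25-fold.

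Complex IV, cytochrome c oxidase, had the most one-sided count, with 15 of 17 means higher in KO cells and 2 lower, those of Cox5b and Cox8c. Ndufa4, grouped by its symbol with complex I, is not among the 17. The median difference was 0.052, or a change of a few percent, and 0 genes passed the adjusted threshold in either direction. The split was 12 higher and 5 lower with each array centred on its median, with a median of 0.034, and 13 higher and 4 lower under quantile normalization. For the 10 genes that are not tissue-restricted, 9 were higher and 1 lower, with a median of 0.048, and all 10 intervals lay within 1.25-fold. No list of genes was tested as a whole, so these counts are a description.

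Cox4i1, the common form of the largest nuclear-encoded subunit, had the smallest p of these 10. It read 10.88, 10.79, 10.92, 10.92 and 10.78 on KO arrays 1 to 5, against 10.72, 10.66, 10.74, 10.77 and 10.84 on WT arrays 1 to 5. WT array 5 was above KO arrays 2 and 5, and the other WT arrays were below all KO arrays. The means differed by 0.11, or 8.11%, with an SE of 0.070 (limma adjusted p = 0.842; exact permutation p = 0.0397). The other common forms differed by 0.073 (Cox6a1), 0.023 (Cox6b1), 0.078 (Cox7a2), 0.11 (Cox7b) and 0.043 (Cox8a), with limma adjusted p-values from 0.872 to 0.972. A second, dimmer probe set of Cox7b, at a mean of 4.63 in KO and 4.83 in WT cells, differed by -0.19, and the mean of both probe sets gave -0.045.

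**Figure D2:**
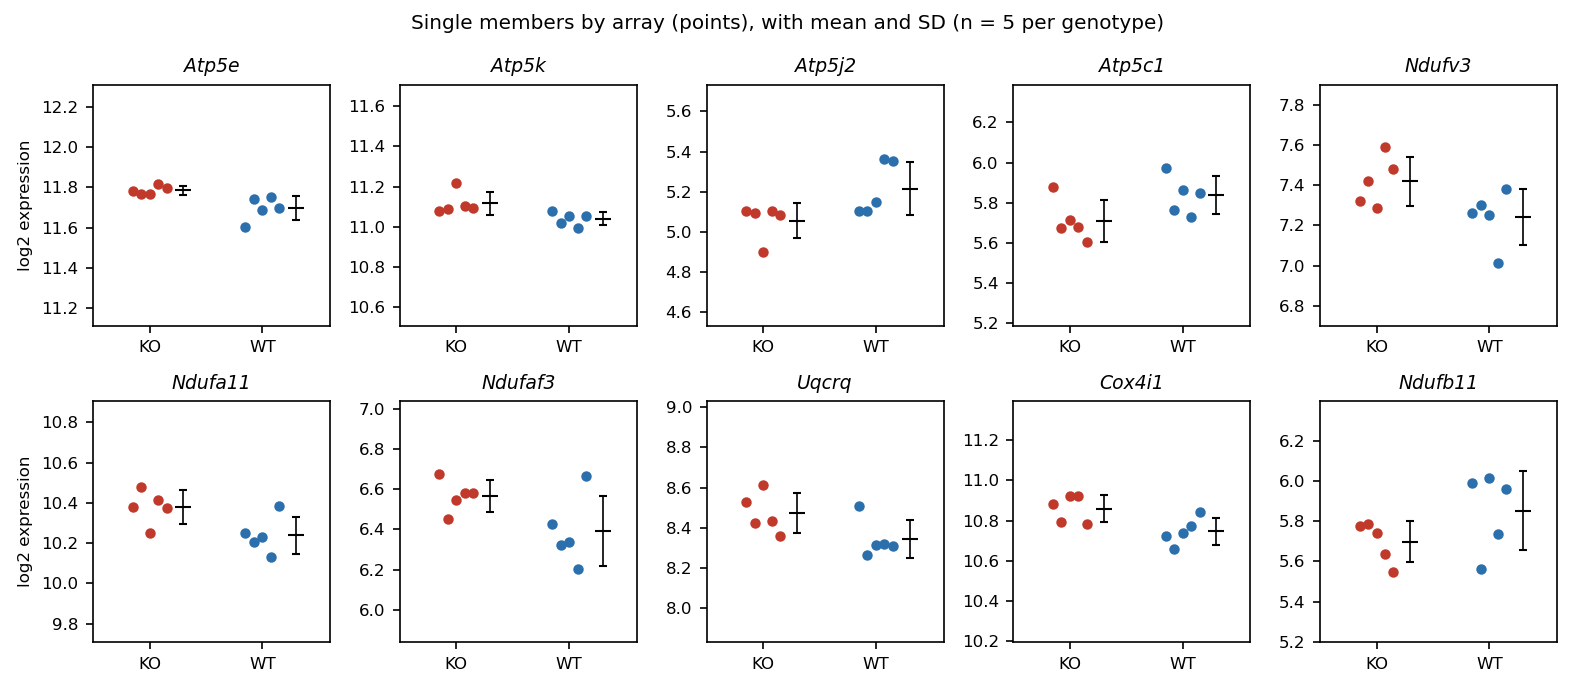
Log2 expression (y axis) of 10 genes on each array, KO in red on the left and WT in blue on the right of each panel, with the mean and SD beside the points (n = 5 each). The KO and WT points overlap in all panels except those of Atp5e, Atp5k and Atp5j2.

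The tissue-restricted isoforms did not separate the genotypes either. Cox4i2, the lung form, averaged 4.91 ± 0.16 in KO and 4.76 ± 0.21 in WT cells, and Cox7a1, the heart and muscle form that brown fat also uses, averaged 4.22 ± 0.21 in KO and 4.044 ± 0.13 in WT cells (SD, n = 5 each). Their differences were 0.15 and 0.18 (limma adjusted p = 0.857 and 0.842). Cox7a1 read 4.10, 4.27, 4.57, 4.17 and 4.011 on the KO arrays, against 4.074, 4.17, 3.83, 4.043 and 4.11 on the WT arrays, and without KO array 3, its highest, the difference was 0.094. Cox6a2 and Cox8b, heart and skeletal muscle forms, differed by 0.052 and 0.00828.

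The testis forms Cox7b2 and Cox8c, with the muscle form Cox8b and with Ndufa4l2, were below the median of genes on every array. Atp5o, which forms part of the stalk of ATP synthase, was the only other member to be so, while Ndufs5, Cox7a1 and Atp5g1 were below it on 9 arrays and the remaining 79 members were above it on all 10. Cox7b2 averaged 2.101 in KO and 2.101 in WT cells, and Cox8c averaged 2.44 ± 0.16 in KO and 2.61 ± 0.26 in WT cells (SD, n = 5 each), which differed by -0.18 (limma adjusted p = 0.854). The level below which a value is background is not known for these arrays.

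Cox6b2, a testis form of the subunit that joins the dimer, had the widest spread over the 10 arrays of the restricted forms. It was above the median of genes on all 10 arrays, as were Cox4i2 and Cox6a2, and read 7.78, 7.80, 7.38, 7.34 and 7.26 on KO arrays 1 to 5, against 8.032, 7.75, 7.25, 6.63 and 7.33 on WT arrays 1 to 5. WT cultures thus held both its highest and its lowest value, while its common counterpart Cox6b1 stayed between 10.01 and 10.24 in all 10 samples. The difference of 0.11 had an interval from -0.35 to 0.58 (limma adjusted p = 0.949) and was -0.080 without WT array 4.

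**Figure D3:**
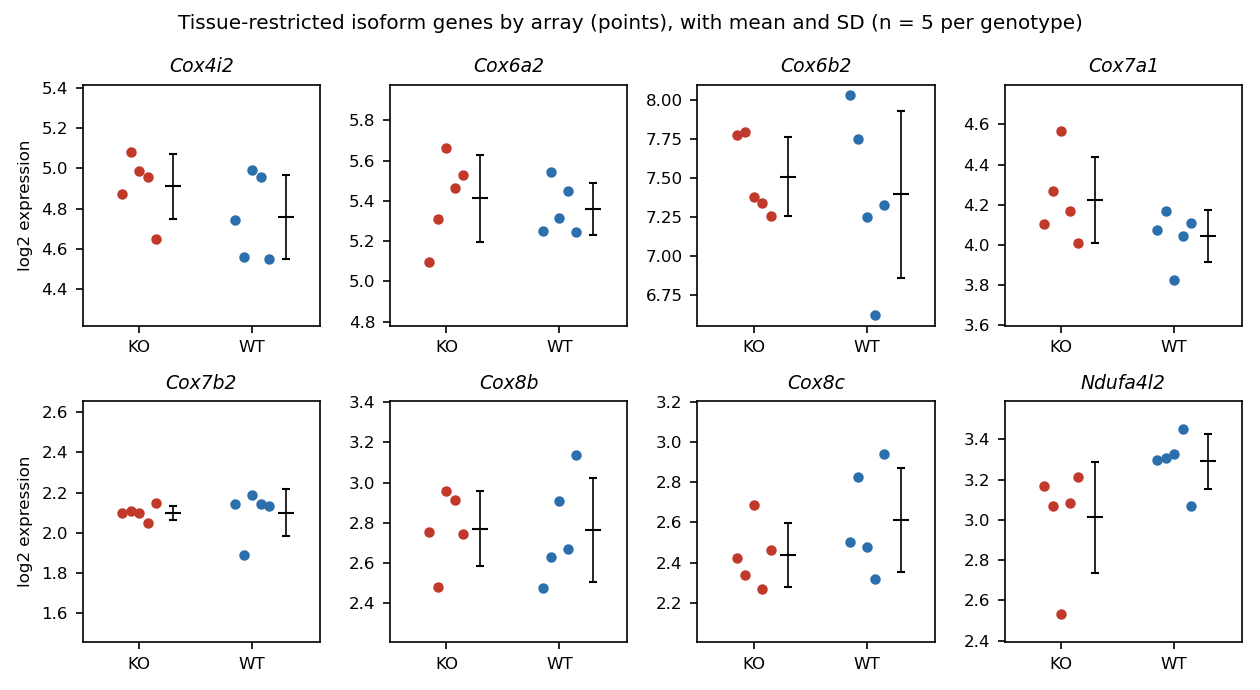
Log2 expression (y axis) of the 8 tissue-restricted isoform genes on each array, KO in red on the left and WT in blue on the right of each panel, with the mean and SD beside the points (n = 5 each). The genotypes overlap in every panel, and Cox6b2 has the widest spread, from 6.63 to 8.032 within WT.

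Marker genes of skeletal muscle and brown fat, and of other cell types, were read beside these isoforms. Markers of lung and testis were not read. Over 7 skeletal muscle markers the mean log2 level ran from 4.21 to 4.57 on KO arrays and from 4.18 to 4.47 on WT arrays. Of these, 4 had a higher mean in KO cells, Acta1 by 0.66 (limma adjusted p = 0.821). Acta1 and Tnnt3 were above the median of genes on all arrays, and 4 markers, Myod1 among them, were below it on all. Over 5 brown fat markers, Cox7a1 among them, the mean level ran from 2.93 to 3.11 on KO arrays and from 2.83 to 3.0092 on WT arrays. Here 3 were higher in KO, Cox7a1 itself among them, and Elovl3 differed by -0.22 (limma adjusted p = 0.823). Ucp1 and Cidea were below the median on all arrays. Over 6 macrophage markers, 5 of them with a higher mean in KO cells, the mean level was 4.55 on KO array 3. It was 3.69 to 4.14 on the other KO arrays and 3.78 to 4.0021 on the WT arrays. Cd68 was above the median on all arrays, and 3 macrophage markers, Ptprc among them, were below it on all. Over 5 endothelial markers the mean level ran from 3.11 to 3.56 on KO arrays and from 3.070 to 3.30 on WT arrays. Of these, 4 were higher in KO and below the median of genes on all 10 arrays, while Kdr differed by -0.19. Cdh5, higher by 0.61, and Esam, higher by 0.18, had no overlap between genotypes (limma adjusted p = 0.628 and 0.824). The share of all genes without overlap on the higher side was 0.541%. Fibroblast and keratinocyte markers overlapped, at 8.84 to 9.031 and 3.32 to 3.47 on KO arrays, against 8.77 to 9.16 and 3.38 to 3.51 on WT arrays. KO array 3 was also the highest KO array for Cox7a1 and Cox7b and the lowest for Ndufa4l2. The part of other cell types' RNA in these values was not tested. Without KO array 3 complex IV split 13 higher and 4 lower, with a median of 0.040.

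Complex V, the ATP synthase, went neither way as a whole, with 8 of 17 means higher and 9 lower in KO cells and a median of -0.0076, and 6 higher and 11 lower under either quantile normalization or median centring. The catalytic subunits were level between genotypes. Atp5b, the beta subunit, averaged 10.82 ± 0.055 in KO and 10.82 ± 0.043 in WT cells, and Atp5a1, the alpha subunit, averaged 10.38 ± 0.081 in KO and 10.41 ± 0.027 in WT cells (SD, n = 5 each). Their differences were 0.0021, with an interval from -0.14 to 0.14, and -0.032, with an interval from -0.18 to 0.12. The SD of Atp5b over all 10 arrays, 0.046, was the smallest among the 87 genes.

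In the values as deposited, this complex held the 3 members whose KO and WT arrays did not overlap. They were 3.45% of the 87, while 0.987% of all genes had no overlap. On the higher side there were 2, Atp5e and Atp5k, where the share of all genes was 0.541%. On the lower side there was Atp5j2, where it was 0.446%. The gaps between genotypes were small for all 3 beside the medians over genes, which ran from 4.29 to 4.34 across arrays. Overlap after median centring was not examined. Atp5e, the epsilon subunit of the central stalk, read 11.78, 11.77, 11.77, 11.82 and 11.80 on KO arrays 1 to 5, against 11.60, 11.74, 11.69, 11.75 and 11.70 on WT arrays 1 to 5. The lowest KO array and the highest WT array were almost level, and KO exceeded WT by 0.088, or 6.31%, SE 0.065 (limma adjusted p = 0.857). A second probe set of Atp5e differed by 0.077, and there WT array 5, at 11.35, lay above KO arrays 1 and 2, at 11.30 and 11.31.

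Atp5k, the subunit e that takes part in dimer formation, read 11.081, 11.089, 11.22, 11.10 and 11.092 on the KO arrays, against 11.077, 11.020, 11.054, 10.995 and 11.055 on the WT arrays. KO exceeded WT by 0.077, or 5.45%, SE 0.065 (limma adjusted p = 0.874). It stood at 0.051 without KO array 3, which lay above all other arrays. Atp5j2, the membrane subunit f, read 5.10, 5.093, 4.90, 5.10 and 5.082 on the KO arrays, against 5.11, 5.11, 5.15, 5.36 and 5.35 on the WT arrays. WT arrays 4 and 5 were high, WT arrays 1 and 2 were just above the KO values, and KO minus WT was -0.16, SE 0.082 (limma adjusted p = 0.839). For these 3 genes p was 0.00794 in the exact two-sided permutation test, the smallest that 5 against 5 arrays can give. That value follows from the lack of overlap by which they were picked, so it adds nothing to it. It is also not adjusted for the genes examined.

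Sequence around the start of these 3 genes is shown because they are the members without overlap, and the capitals mark matches to motifs of factors known for respiratory chain promoters. The sequences are from RefSeq, build GRCm38.p6, 5′ to 3′ on the gene's strand, and positions count from the gene start, with -1 the base before it. The Atp5k stretch is chr5:108434400-108434499, minus strand, positions -100 to -1, with the NRF1 motif in capitals. The Atp5e stretch is chr2:174464102-174464231, minus strand, positions -130 to -1, with the ETS motif bound by GABPA in capitals, which reads CCGGAAG on the opposite strand. The Atp5j2 stretch is chr5:145191501-145191528, minus strand, positions 14 to 41, with the YY1 motif in capitals.
Atp5k: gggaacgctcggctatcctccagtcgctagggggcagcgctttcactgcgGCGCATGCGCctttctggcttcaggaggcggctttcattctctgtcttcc
Atp5e: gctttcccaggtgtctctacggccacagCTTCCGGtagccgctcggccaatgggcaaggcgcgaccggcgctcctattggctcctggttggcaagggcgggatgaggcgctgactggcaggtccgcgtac
Atp5j2: ccaggacttcAAGATGGCgtcactcggt
The 3 stretches show motifs of 3 different factors, and the Atp5k window also holds an ETS motif after the gene start.

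Of the remaining ATP synthase genes, Atp5c1, the gamma subunit that turns within the catalytic head, averaged 5.71 ± 0.10 in KO and 5.84 ± 0.094 in WT cells (SD, n = 5 each), which differed by -0.13 (limma adjusted p = 0.842). Atp5d, the delta subunit, and Atp5g2, one of several genes for the c ring, had probe sets that differed in sign, 0.0069 and -0.060 for Atp5d and -0.018 and 0.036 for Atp5g2. Atp5g1, another c ring gene, had the largest SD over 10 arrays of all members, 0.41, and is named for it. It ran from 3.15 to 4.58 on KO arrays, against 3.89 to 4.30 on WT arrays, with a difference of -0.17 and an interval from -0.64 to 0.30. Atp5g1 lies on chromosome 11, as does Zbtb4, and the other members there, Atp5h of the peripheral stalk, Ndufaf8 and Uqcrq, differed by -0.033, -0.071 and 0.13, with limma adjusted p-values for all 4 from 0.842 to 0.957.

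The arrays differed more among themselves than the genotypes did. The mean deviation of all 87 members from their own means over 10 arrays was 0.037, -0.023, 0.035, 0.032 and -0.031 on KO arrays 1 to 5, against -0.029, -0.019, -0.0079, -0.038 and 0.044 on WT arrays 1 to 5. WT array 5 had the highest value of all, with 61 of 87 members above their own mean, and KO array 1 also had 61, while WT array 1 had 23. WT array 5 was the highest WT array in each of complexes I to V and for the assembly factors. Complex V was nearly flat across KO arrays, from -0.013 to -0.0014, while complex III ran from -0.074 to 0.089 on KO arrays and from -0.038 to 0.036 on WT arrays.

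**Figure D4:**
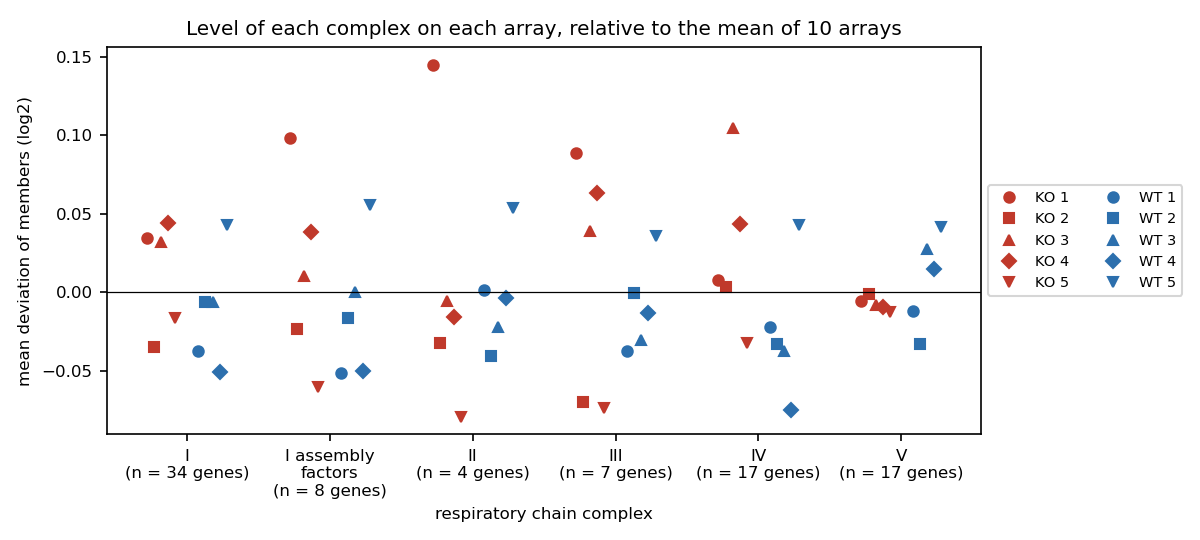
Mean deviation of the members of each complex from their means over the 10 arrays (y axis, log2), 1 point per array, KO in red on the left and WT in blue on the right of each complex, with a marker shape per replicate number. The genotypes overlap for every complex, WT array 5 is the highest WT point in each, and KO array 1 is highest for the assembly factors and complexes II and III.

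Other genes of the pathway, from lists written out for this comparison, did not pass either. Among 41 assembly genes of complexes I to V outside the Nduf prefix, the means of 19 were higher and of 22 lower in KO cells, with a median of -0.0069, and of 14 genes of electron carriers and ubiquinone synthesis 6 were higher and 8 lower. Of 68 mitochondrial ribosomal protein genes 32 were higher and 36 lower, with a median of -0.0083. Of 16 citric acid cycle genes 4 were higher and 12 lower, with a median of -0.023. Of 18 regulators of mitochondrial biogenesis 7 were higher and 11 lower. In each of these lists 0 genes passed limma's adjusted threshold in either direction; genes of the mitochondrial genome were not analysed here.

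Within these lists 4 of 157 genes, or 2.55%, had a limma unadjusted p under 0.05, all with lower means in KO cells. Of all genes 5.98% met that rule, and 2.73% on the lower side. The 4 are named after their values were seen. Ttc19, an assembly factor of complex III, averaged 6.43 ± 0.11 in KO and 6.70 ± 0.11 in WT cells (SD, n = 5 each), which differed by -0.28 (limma adjusted p = 0.821). Cluh, whose protein binds mRNAs for mitochondrial proteins, differed by -0.34 (limma adjusted p = 0.804). All KO arrays were below all WT arrays for both, 1.27% of the 157 genes, where the share of all genes was 0.446%, and both genes lie on chromosome 11, as Zbtb4 does. Pdss2, of ubiquinone synthesis, differed by -0.26 and Mrpl32, a mitochondrial ribosomal protein gene, by -0.23, with limma adjusted p-values of 0.829 and 0.821 and arrays that overlapped.

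Promoter sequence is a feature that the members share and that their selection did not use. RefSeq windows of 300 bases, 250 before the gene start and 50 after it, were at hand for 72 of the 87 genes, in 77 windows. For 5 genes there were several windows, and these can overlap and hold the same site. No window was given for Atp5a1, Atp5mpl, Cox4i1, Cox4i2, Cox6a2, Cox8c, Ndufa2, Ndufa4l2, Ndufaf6, Ndufb9, Ndufs1, Sdhc, Uqcrb, Uqcrc2 and Uqcrq. Motifs were searched on both strands, as NRF1 (its 10-base palindrome, and the same with any base at the sixth place), ETS (CCGGAAG), YY1 (AAGATGGC) and ZBTB4 (CTGCCATC and CCGCCATC, forms of the site known for this protein). A match describes the letters of a window and not a bound site.

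NRF1, ETS and YY1 motifs were several times as frequent in windows of members as in all 32851 windows of the table. The NRF1 palindrome stood in 9.09% of member windows, against 0.971% of all windows, and its looser form in 23.4%, against 4.60%. CCGGAAG stood in 24.7%, against 8.86%, and AAGATGGC in 12.99%, against 2.75%. At least 1 of these 3 factors' motifs was found in 41 of 77 member windows, or 53.2%, against 14.7% of all windows. Member windows also held a median of 20 CpG sites, against 7 in all windows, and windows were not matched for base composition, so its part in these shares was not tested.

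Of the ZBTB4 forms, CTGCCATC stood in 0 of 77 member windows and 1.39% of all windows, and CCGCCATC in 7 member windows, or 9.09%, against 1.70% of all windows. The 7 windows belong to Atp5j, Ndufa7, Ndufa9, Ndufaf8, Ndufs4 and Ndufs7. The windows of Ndufa7 overlap and hold the same site, so it is counted more than once in this share. In 5 windows CCGCCATC and the YY1 motif were both found, and in all 5 they overlapped, because AAGATGGC followed by GG holds CCGCCATC on the opposite strand. These 6 genes differed by 0.028, 0.14, 0.12, -0.071, 0.010 and -0.067 in the order given.

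Atp5j, of the peripheral stalk, and Cox6a1 are shown for the motifs they combine, and Ndufa11 for its NRF1 motif alone. Atp5j, at chr16:84834977-84835096 on the minus strand, positions -120 to -1, has the overlapping YY1 and ZBTB4 motifs and then the ETS motif in capitals. Cox6a1, at chr5:115348959-115349128 on the minus strand, positions -170 to -1, has 2 NRF1 motifs and an ETS motif in capitals. Ndufa11, at chr17:56717662-56717761 on the plus strand, positions -100 to -1, has the NRF1 motif in capitals.
Atp5j: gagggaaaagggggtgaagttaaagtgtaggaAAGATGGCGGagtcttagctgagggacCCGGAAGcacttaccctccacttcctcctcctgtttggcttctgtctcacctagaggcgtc
Cox6a1: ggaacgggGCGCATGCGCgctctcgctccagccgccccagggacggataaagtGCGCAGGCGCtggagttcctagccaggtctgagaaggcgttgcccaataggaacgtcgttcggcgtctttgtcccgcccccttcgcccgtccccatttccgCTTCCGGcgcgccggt
Ndufa11: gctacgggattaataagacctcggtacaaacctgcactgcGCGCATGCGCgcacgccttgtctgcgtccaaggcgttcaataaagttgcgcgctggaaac
Between KO and WT cells these 3 genes differed by 0.028, 0.073 and 0.14.

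The 4 tissue-restricted isoforms with a window held 2 (Cox8b), 7 (Cox7a1), 10 (Cox6b2) and 10 (Cox7b2) CpG sites, against a median of 7 in all windows. Their common counterparts held 19 (Cox8a), 20 (Cox7a2), 17 (Cox6b1) and 5 (Cox7b), so that the restricted form had fewer in 3 of the 4 pairs and more in the pair of Cox7b2 and Cox7b. The pair of Cox8b and Cox8a, which differs most, is shown over positions -100 to -1, with every CG in capitals. Cox8a lies at chr19:7217617-7217716 and Cox8b at chr7:140900447-140900546, both on the minus strand.
Cox8a: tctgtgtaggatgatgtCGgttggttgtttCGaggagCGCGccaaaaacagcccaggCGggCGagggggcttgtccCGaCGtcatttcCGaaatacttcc
Cox8b: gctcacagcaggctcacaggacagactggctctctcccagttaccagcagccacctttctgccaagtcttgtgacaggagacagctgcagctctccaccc
The Cox8a stretch holds 9 CG and the Cox8b stretch 0. The differences between KO and WT cells were 0.043 for Cox8a and 0.00828 for Cox8b, with intervals from -0.11 to 0.19 and from -0.27 to 0.28.

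**Figure D5:**
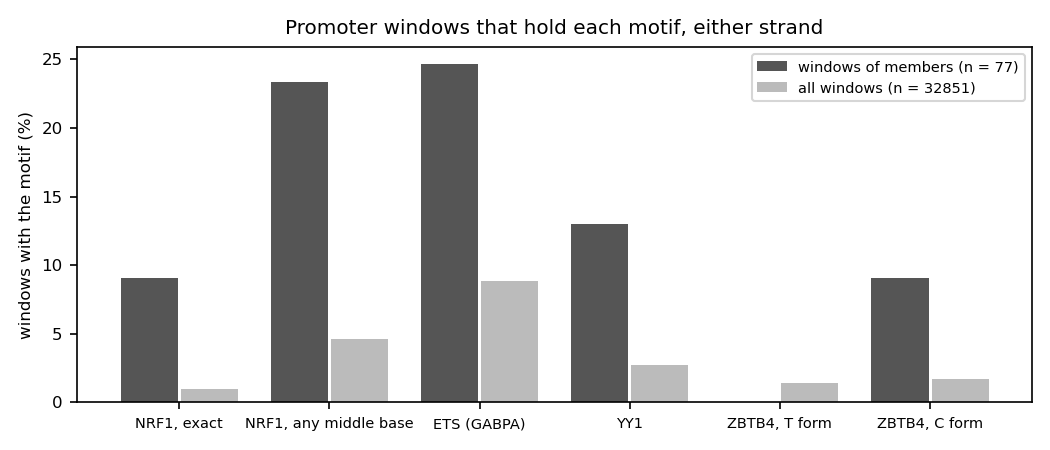
Share of promoter windows (y axis, percent) that hold each motif on either strand, with windows of members as dark bars (n = 77) and all windows of the table as light bars (n = 32851). Member bars are the taller for NRF1, ETS, YY1 and the C form of the ZBTB4 motif, and the T form is at 0 in members.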

How the data were processed

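The deposited table gives 41345 probe sets on 10 arrays, with log2 values that the authors summarised per probe set before deposit, and the scale was inferred from the range of values. Per the labels' protocols, total RNA was biotin-labelled by the Affymetrix procedure; no source used here names the summarisation or normalization. Where arrays are equalised, a change in RNA per cell cannot be seen.

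Of the probe sets, 23521 had 1 gene symbol in the platform annotation, 1814 had several and 16010 had none, and only the first kind was used. All 87 members were found in the RefSeq gene table by Entrez identifier. KO minus WT differences came from limma 3.58.1 (lmFit, eBayes; R 4.3.3), run on all 22180 genes with no covariate or filter, and adjusted by Benjamini-Hochberg with a threshold of 0.05. For single members, an exact permutation test (two-sided) was added. No gene list was tested as a whole. The fit was tested on simulated data. Figures were drawn with matplotlib 3.10.9.

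The members, lists and tests were chosen with earlier results of these data known. Genes named are Zbtb4; members passing the threshold or without overlap between genotypes; per complex the 2 higher and 2 lower with the smallest p-values; tissue-restricted isoforms with their common counterparts; catalytic subunits; and members whose probe sets differ in sign. Others are said to be chosen after their values were seen or belong to a count. Alternatives were quantile normalization, median centring, leaving out the dimmest 40% of genes, averaging or testing singly all probe sets, eBayes with trend and robust, a replicate block, array weights, Y-linked genes as a covariate and leaving out each array.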

Additional observations from a re-analysis of the deposited data

Results flagged for a closer look

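Samples far from the others of their genotype were found in 7 of 96 groups of 5 arrays examined. The groups were the KO and the WT arrays of each named member and of the array profiles of all members and of each complex. Chance gives about 1 in 20 for a group not chosen by its values. Many named members were chosen by their p-values or lack of overlap in these arrays, so that rate does not apply here. KO array 3 accounts for 4 of the 7. It was lowest for Atp5j2, at 4.90 where the other KO arrays lay between 5.082 and 5.10, and lowest for Ndufa4l2, at 2.53 where the others lay between 3.067 and 3.22. It was lowest for Sdha, at 8.42 where the others lay between 8.54 and 8.57, and highest for Atp5k, at 11.22 where the others lay between 11.081 and 11.10. KO array 5 was lowest for Uqcr11, at 7.98 where the others lay between 8.23 and 8.28. WT array 1 was highest for Uqcrq, at 8.51 where the others lay between 8.26 and 8.32. WT array 2 was lowest for Cox7b2, at 1.89 where the others lay between 2.13 and 2.19.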

How the results depend on the processing

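No member passed the adjusted threshold in either direction in any of the 19 alternatives run, where the smallest limma adjusted p was 0.624. The count at a limma unadjusted p under 0.05 moved. It was 2 higher under quantile normalization and under array weights and 4 higher under eBayes with trend and robust, where 0 were higher in the reported fit, and it ran from 0 to 4 higher and from 0 to 2 lower with single arrays left out. It was 0 lower without the dimmest 40% of genes, which leaves 83 members and drops Ndufa4l2, Cox7b2, Cox8b and Cox8c, and 0 lower with the replicate block. Same-numbered arrays correlated in their deviations from -0.045 to 0.17, 1 of 5 pairs above 0.1, so the numbers were not taken as pairs, although same-numbered arrays also matched in their level of Y-linked genes; with the replicate block the median of all members was 0.023 and 0 passed.

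With single arrays left out the median difference ran from 0.011 to 0.038 for all members, from -0.00028 to 0.047 for complex I, from -0.028 to 0.041 for its assembly factors, from -0.014 to 0.032 for complex II, from -0.023 to 0.038 for complex III, from 0.037 to 0.070 for complex IV and from -0.018 to 0.011 for complex V. Of the 41 named members 28 kept their sign in all alternatives run. Signs turned under quantile normalization and median centring for Cox8b (-0.020 and -0.0093), Cox7b2 (-0.00859 and -0.018, and -0.0015 with array weights), Atp5b (-0.023 and -0.015) and Atp5d (-0.024 and -0.011). The mean of all probe sets turned Cox7b (-0.045), Atp5d (-0.026) and Atp5g2 (0.00909). With single arrays left out, signs turned for Sdhb (-0.0045 to 0.095), Uqcrc1 (-0.055 to 0.027), Cox5b (-0.057 to 0.032), Cox6a2 (-0.010 to 0.13), Cox8b (-0.064 to 0.10), Cox6b2 (-0.080 to 0.27), Cox7b2 (-0.052 to 0.022), Cox6b1 (-0.011 to 0.047), Ndufv1 (-0.0026 to 0.087), Atp5b (-0.016 to 0.021), Atp5d (-0.025 to 0.026) and Atp5g2 (-0.041 to 0.0076). The cause was not tested.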
